A study of Mus musculus with 10 samples.

Results

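The annexin genes were followed in subcutaneous mouse lung tumors treated with liraglutide or vehicle. The members were 10 genes of 55401 in the count table, taken by their symbols: Anxa1, Anxa2, Anxa3, Anxa4, Anxa5, Anxa6, Anxa7, Anxa8, Anxa10 and Anxa11. The family was selected on Anxa10, whose levels were lower in every liraglutide tumor than in any vehicle tumor, and the other 9 members are its paralogs. The list leaves out Anxa9 and Anxa13, which are given apart. All 10 members passed the filter on low counts.

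The 10 tumors analyzed, those kept after the quality assessment of the study, were 5 from liraglutide-treated and 5 from vehicle-treated mice, and RNA was sequenced to ask how the drug, a glucagon-like peptide 1 receptor agonist, alters gene expression in tumors of obese hosts. Both groups were obese male C57BL/6J mice with obesity induced by a diet that gave 60% of calories as fat. They were 7 to 17 weeks old when 75000 KPN1.1 cells were injected into the flank. KPN1.1 is a mouse lung adenocarcinoma line that carries the NINJA neoantigen construct, which the tumors of both groups therefore share. Once a tumor was palpable, mice received liraglutide at 0.2 μg per g body weight daily or its PBS vehicle, both by the intraperitoneal route, and they were euthanized between days 19 and 22. A single line was used, and its tumors grew under the skin rather than in the lung. Frozen fragments hold tumor cells together with host cells.

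Annexins are calcium-binding proteins that attach to membranes rich in acidic phospholipids such as phosphatidylserine. They take part in membrane repair, vesicle traffic, organization of the cell cortex and the control of inflammation, and several are also found on the cell surface. Annexin A10 is an unusual member with poorly conserved calcium-binding sites, and it is best known from the epithelium of the stomach.

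Total counts lay between 9927942 and 14480593 per tumor, and at this depth 3 counts correspond to 0.207 to 0.315 CPM (counts scaled to a common library size). The lowest count of any member in any tumor was 263, so spread between tumors rather than counting error set the precision. The first principal component held 48.7% of the variance, and vehicle tumor 5 lay far out on the second, at -54.62. Epithelial keratins marked the tumors, with Krt8 at 1631 CPM or more in each, and Cdh1 was at 559.9 CPM or more, whereas Epcam stayed at 4.63 CPM or less. Lung identity was partial. Nkx2-1, the lineage factor of lung epithelium, was present from 17.74 CPM, Sftpb from 65.08 CPM and Abca3 from 55.89 CPM. Ager ran from 2.625 to 33.2 CPM and Scgb1a1 from 0.652 to 20.39 CPM. The alveolar genes Sftpc and Napsa did not exceed 5.96 and 2.55 CPM, and Sftpa1, Sftpd, Lamp3, Hopx and Foxj1 did not pass the filter. Summed keratinocyte markers lay between 8.98 and 18.79 CPM in vehicle tumors and between 6.997 and 209.5 CPM in liraglutide tumors. All 5 had a positive log2 fold change (median 2.36). By edgeR 4 of the 5 were higher at an unadjusted p under 0.05, where 3.97% of all genes were, and 0 were called. Leukocyte markers summed to between 203.9 and 380.9 CPM in vehicle tumors and between 230.7 and 422.5 CPM in liraglutide tumors, with 6 of 6 tested log2 fold changes above 0 (median 0.24). For skeletal muscle the sums ran from 27.7 to 226.7 and from 54.77 to 277.4 CPM, with 5 of 5 above 0 (median 0.74). Fibroblast sums were 858.4 to 2043 and 1170 to 2264 CPM (4 of 6 above 0), endothelial sums 94.81 to 152.6 and 94.93 to 121.1 CPM (2 of 5 above 0), and adipocyte sums 3.32 to 26.77 and 5.14 to 26.99 CPM (0 of 2 above 0).

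Anxa10 (ENSMUSG00000031635.14) is a minus-strand gene of chromosome 8 (62510076 to 62576184, GRCm39). In vehicle tumors 1 to 5 it was measured at 186.2, 205.8, 355.7, 137.1 and 279.6 CPM. The liraglutide tumors 1 to 5 had 126.1, 98.93, 92.88, 123.2 and 56.94 CPM. The groups did not overlap: vehicle tumor 4 was the lowest of its group and still exceeded liraglutide tumor 1, the highest of the other. Means were 233 ± 85.7 CPM with vehicle and 99.6 ± 28.0 CPM with liraglutide (SD, n = 5 each), a ratio of 0.428. The log2 fold change was -1.23 with a standard error of 0.27. These values chose the gene and are given as a description, with no test. In bulk tumors, fewer cells that express Anxa10 and less Anxa10 RNA per cell cannot be told apart.

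Across all genes, edgeR's quasi-likelihood test with Benjamini-Hochberg adjustment called 0 of 17464 (0.0%), with a smallest adjusted p of 0.482. A gene that did not pass is therefore not set apart from the others by this test. Groups that did not overlap were found in 261 genes (1.49%), of which 155 (0.888%) were lower with liraglutide, Anxa10 among them. DESeq2, the tool the study used, called 52 genes, and limma-voom called 0. The 52 rest on the adjusted p alone, whereas the study also set a limit on fold change, so its count is not set beside this one. The study named Anxa10 among the transcripts decreased with liraglutide.

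The nearest tested protein-coding genes on either side of Anxa10 did not pass the test. Ddx60, an RNA helicase gene, ends 18.8 kb away on the side of lower coordinates and had 24.9 ± 17.96 CPM with vehicle and 23.6 ± 6.12 CPM with liraglutide (SD, n = 5 each; log2 fold change -0.08, SE 0.45, adjusted p = 0.964 by edgeR). On the other side lay Tll1, a metalloprotease gene 1890 kb away, with a log2 fold change of -0.16 (SE 0.38, adjusted p = 0.899 by edgeR). Of 2292 windows of 50 bases in the exons of Anxa10, 0 occurred in another annotated gene, so exact copies of its exon sequence that could take its reads were not found at that length.

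The DNA just before the start of 5 members is shown next. It sets the promoter of Anxa10 beside those of Anxa1 and Anxa2, which share motifs with it. Anxa7 and Anxa11 are a pair chosen after their levels were seen to go together from tumor to tumor. RefSeq held the start of 8 members, on GRCm38.p6. The windows run over 250 bases, 5′ to 3′ on the strand of the gene, at chr8:62123194-62123443 for Anxa10 (minus strand), chr19:20390672-20390921 for Anxa1 (minus), chr9:69453433-69453682 for Anxa2 (plus), chr14:20479942-20480191 for Anxa7 (minus; the start with more CG dinucleotides) and chr14:25841905-25842154 for Anxa11 (plus). Capitals mark matches on either strand to the TATA box motif TATAAA, the AP-1 motif TGANTCA, the GC box motif GGGCGG and the forkhead motif TGTTTAC.
Anxa10: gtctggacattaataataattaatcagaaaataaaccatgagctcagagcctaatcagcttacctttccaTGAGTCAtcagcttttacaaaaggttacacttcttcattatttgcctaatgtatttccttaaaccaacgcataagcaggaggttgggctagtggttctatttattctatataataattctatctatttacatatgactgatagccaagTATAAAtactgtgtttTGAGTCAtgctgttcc
Anxa1: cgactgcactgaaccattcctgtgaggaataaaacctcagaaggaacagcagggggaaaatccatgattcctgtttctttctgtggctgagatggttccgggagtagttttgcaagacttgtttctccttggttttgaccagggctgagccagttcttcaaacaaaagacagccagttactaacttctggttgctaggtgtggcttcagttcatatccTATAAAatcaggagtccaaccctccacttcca
Anxa2: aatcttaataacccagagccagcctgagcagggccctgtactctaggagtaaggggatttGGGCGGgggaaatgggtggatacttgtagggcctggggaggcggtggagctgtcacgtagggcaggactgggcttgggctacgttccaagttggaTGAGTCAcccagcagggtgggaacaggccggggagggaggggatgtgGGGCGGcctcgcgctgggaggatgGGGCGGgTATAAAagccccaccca
Anxa7: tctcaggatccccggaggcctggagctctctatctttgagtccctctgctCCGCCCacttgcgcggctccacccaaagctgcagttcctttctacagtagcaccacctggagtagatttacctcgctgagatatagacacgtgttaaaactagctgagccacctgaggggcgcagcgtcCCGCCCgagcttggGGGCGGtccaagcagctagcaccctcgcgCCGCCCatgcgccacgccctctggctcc
Anxa11: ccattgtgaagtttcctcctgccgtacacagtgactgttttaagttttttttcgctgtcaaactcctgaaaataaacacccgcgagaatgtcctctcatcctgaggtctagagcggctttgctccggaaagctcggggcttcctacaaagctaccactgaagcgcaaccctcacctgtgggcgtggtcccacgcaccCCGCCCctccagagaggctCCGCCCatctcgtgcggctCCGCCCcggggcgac

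The Anxa10 window was poor in CG, with 33.6% G and C and 1 CG dinucleotide, where the median over all 32851 promoters was 6. It held TATAAA beginning 32 bases before the start and TGAGTCA at 180 and 16 bases before it. Anxa1 also had TATAAA at 32 bases, in a window with 2 CG dinucleotides. Anxa2 was the other member with an AP-1 match, at 95 bases, together with TATAAA at 17 bases, 3 GC boxes and 9 CG dinucleotides. Anxa7 and Anxa11 had no TATAAA but 4 and 3 GC boxes, among 16 and 17 CG dinucleotides. The levels of Anxa8 also went with both (Pearson's r = 0.89 with Anxa7 and 0.88 with Anxa11 within groups). Its window, not shown, held 0 GC boxes and 4 CG dinucleotides. RefSeq did not hold the start of Anxa3, whose levels were closest to those of Anxa7. A link between promoter letters and shared levels was not tested. Of all promoters of this length, 12.4% held TATAAA, 6.75% an AP-1 match, 32.7% a GC box and 3.17% a forkhead match, which among the members only the window of Anxa8 had. Such matches describe the letters and are not evidence of binding.

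The 9 paralogs did not pass the test, and neither did any other gene. With edgeR 0 of 9 were called at an adjusted p under 0.05, against 0.0% of all genes, and DESeq2 and limma-voom also called 0. The independent filter of DESeq2 left Anxa11 without an adjusted p, so it could not be called there. Of the 9, 1 paralog (Anxa1) had an unadjusted p under 0.05 (9.59% of all genes did, 5.62% lower and 3.97% higher with liraglutide). In 0 of 9 were the groups without overlap. Of all genes 1.49% were, so this count does not set the paralogs apart. In 6 of 9 the log2 fold change was below 0 (52.6% of all genes), with Anxa3 at 0.03 instead when scaled by library size alone, where the median of all genes was 0.04. The counts over 9 do not hold Anxa9 and Anxa13, both with log2 fold changes below 0. The median of the 9 was -0.06, where that of all genes tested was -0.02, and the 9 ranged from -0.52 for Anxa1 to 0.70 for Anxa6. The plot of CPM by tumor and the plot of log2 fold changes show the 9 beside Anxa10, which was chosen for its separation.

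**Figure D1:**
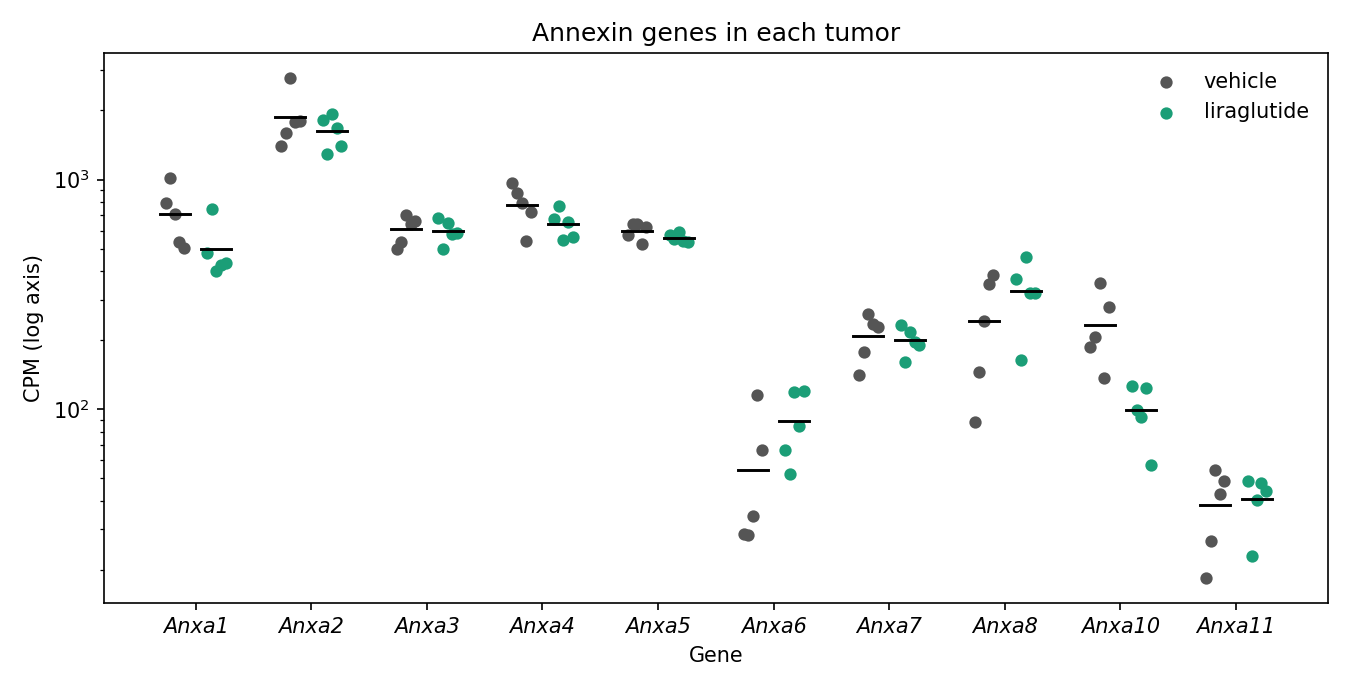
CPM (log axis) of the 10 annexin genes in each of 5 vehicle tumors (gray) and 5 liraglutide tumors (green), with a bar at the group mean. Anxa10 is the gene whose liraglutide tumors, at 126.1 CPM or less, all lie below its vehicle tumors, at 137.1 CPM or more, and the groups overlap in the other 9. The family was selected on this separation, and 1.49% of all genes tested had groups without overlap.

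**Figure D2:**
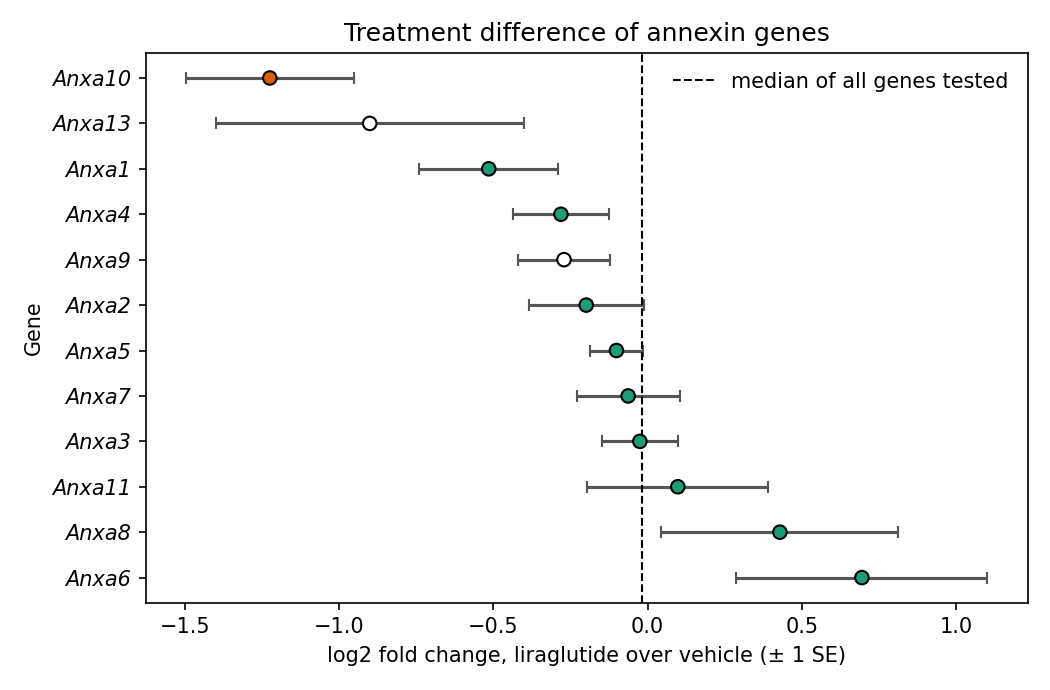
Log2 fold change, liraglutide over vehicle, with a bar of 1 standard error on each side, for the 10 members (filled; Anxa10 in orange) and Anxa9 and Anxa13 (open), from edgeR on 5 tumors per group. Values run from -1.23 for Anxa10 to 0.70 for Anxa6, and the dashed line marks the median of all genes tested, -0.02.

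Anxa1 (chromosome 19 of GRCm39, 20350792 to 20368374, minus strand) encodes annexin A1, which restrains leukocyte recruitment through formyl peptide receptors. It had the lowest log2 fold change of the paralogs, at -0.52 (SE 0.23, adjusted p = 0.515 by edgeR). Vehicle tumors 1 to 5 had 792.8, 1014, 709.6, 533.9 and 502.7 CPM, and liraglutide tumors 1 to 5 had 479.5, 746.9, 400.1, 426.6 and 433.5 CPM. Thus 4 of 5 liraglutide tumors lay below all vehicle tumors, and liraglutide tumor 2 lay within the vehicle range. Means were 710.5 ± 208 and 497.3 ± 142 CPM (SD, n = 5 each).

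For annexin A1 a list of 3 genes was examined, its receptors and a phospholipase, of which 2 were tested and 0 called. Its receptor gene Fpr1 was near the lower end of measurement, at 2.17 ± 1.66 CPM with vehicle and 2.22 ± 0.471 CPM with liraglutide, and Fpr2 did not pass the filter. Pla2g4a, which encodes the cytosolic phospholipase A2 that annexin A1 is known to inhibit, had a log2 fold change of -0.27 (SE 0.13, adjusted p = 0.532 by edgeR).

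Anxa2 (chromosome 9, 69360542 to 69399077, plus strand) was the most abundant member in both groups. Annexin A2 binds S100A10 in a heterotetramer at the inner face of the plasma membrane, and on the cell surface the complex binds plasminogen. Vehicle tumors had 1864 ± 530 CPM and liraglutide tumors 1623 ± 271 CPM (SD, n = 5 each), a log2 fold change of -0.20 (SE 0.19, adjusted p = 0.726 by edgeR). The highest value, 2767 CPM, was that of vehicle tumor 3, which also had the most Anxa10. The other 4 vehicle tumors lay between 1398 and 1791 CPM and the liraglutide tumors between 1289 and 1927 CPM. Without vehicle tumor 3 the log2 fold change of Anxa2 was -0.01.

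Its partner S100a10 had a log2 fold change of -0.58 (SE 0.17, adjusted p = 0.482 by edgeR, unadjusted p = 0.00527), with 328 ± 76.0 CPM with vehicle and 219 ± 33.1 CPM with liraglutide (SD, n = 5 each). The ranges, 236.9 to 404.7 and 179.5 to 263.6 CPM, overlapped. S100a11, whose product binds annexin A1, had a log2 fold change of -0.26 (SE 0.13, adjusted p = 0.56 by edgeR). Of 9 genes of annexin-binding proteins tested, 7 had a log2 fold change below 0, with a median of -0.13, and 0 were called.

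For plasminogen activation, 7 of 8 listed genes were tested, and Plg, which encodes plasminogen itself, had 0 counts in every tumor, which allows up to 0.207 to 0.315 CPM per tumor. The median log2 fold change of the 7 was -0.37, with 6 below 0 and 0 called. Serpinb2, an inhibitor of urokinase, had 17.7 ± 8.32 CPM with vehicle and 8.63 ± 4.37 CPM with liraglutide (log2 fold change -1.03, SE 0.45, adjusted p = 0.515 by edgeR). Plaur, the urokinase receptor, had a log2 fold change of -0.37 (SE 0.17, adjusted p = 0.528).

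Anxa4 (chromosome 6, 86713675 to 86771064, minus strand), an annexin of secretory epithelia, had 778 ± 161 CPM with vehicle and 640.4 ± 91.4 CPM with liraglutide (SD, n = 5 each), a log2 fold change of -0.28 (SE 0.16, adjusted p = 0.582 by edgeR). In 3 of 5 vehicle tumors it was above all liraglutide tumors, but vehicle tumor 4, at 540.1 CPM, was below all of them. Of the 50-base windows of its exons, 11.5% occurred in another gene, most of them on the opposite strand, and whether the counting used strand is not given in the sources used here.

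Anxa5 (chromosome 3, 36503072 to 36530126, minus strand) encodes the phosphatidylserine-binding annexin used as a probe of dying cells. It was the steadiest member, with 599 ± 49.7 CPM in vehicle tumors and 558.5 ± 22.8 CPM in liraglutide tumors (SD, n = 5 each; log2 fold change -0.10, SE 0.09, adjusted p = 0.7 by edgeR). Its within-group SD on the log2 scale was 0.10, where the median of all genes tested was 0.33. Of its 50-base windows 5.10% occurred in another gene, 500 of them in 1810062G17Rik on the opposite strand. Over all 10 tumors the highest value was 1.22 times the lowest, against 6.25 times for Anxa10.

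Among 13 genes of phosphatidylserine exposure and uptake, 10 had a log2 fold change above 0, with a median of 0.12, and 0 were called. Atp11a, a flippase that returns phosphatidylserine to the inner leaflet, had 35.3 ± 11.6 CPM with vehicle and 53.0 ± 13.1 CPM with liraglutide (log2 fold change 0.59, SE 0.24, adjusted p = 0.508 by edgeR). Stab2, a receptor for phosphatidylserine, had 1.58 ± 0.145 CPM with vehicle and 1.01 ± 0.402 CPM with liraglutide (log2 fold change -0.65, SE 0.28, adjusted p = 0.515).

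Anxa6 (chromosome 11, 54869654 to 54924305, minus strand) encodes an annexin with a doubled core that takes part in repair caps at the plasma membrane. It had the highest log2 fold change of the 10 members, 0.70, with the largest standard error among them, 0.41 (adjusted p = 0.595 by edgeR). Vehicle tumors 1 to 5 had 28.53, 28.49, 34.44, 115.6 and 66.3 CPM, and liraglutide tumors 1 to 5 had 66.52, 52.08, 119.5, 84.74 and 119.8 CPM. Vehicle tumors 1, 2 and 3 lay below all liraglutide tumors, and vehicle tumors 4 and 5 lay within the range of the liraglutide tumors. Without vehicle tumor 4 the log2 fold change was 1.18.

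Membrane repair genes lay on both sides of 0. Of 15 tested, 7 had a log2 fold change below 0 and 8 above, with a median of 0.01, and 0 were called. The smallest p values were those of Cav1, the caveolar coat gene (171.5 ± 33.8 against 126 ± 21.3 CPM, log2 fold change -0.44, SE 0.16, adjusted p = 0.482 by edgeR), and Ehd1, a membrane-remodeling ATPase gene (log2 fold change -0.35, SE 0.18, adjusted p = 0.56).

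**Figure D3:**
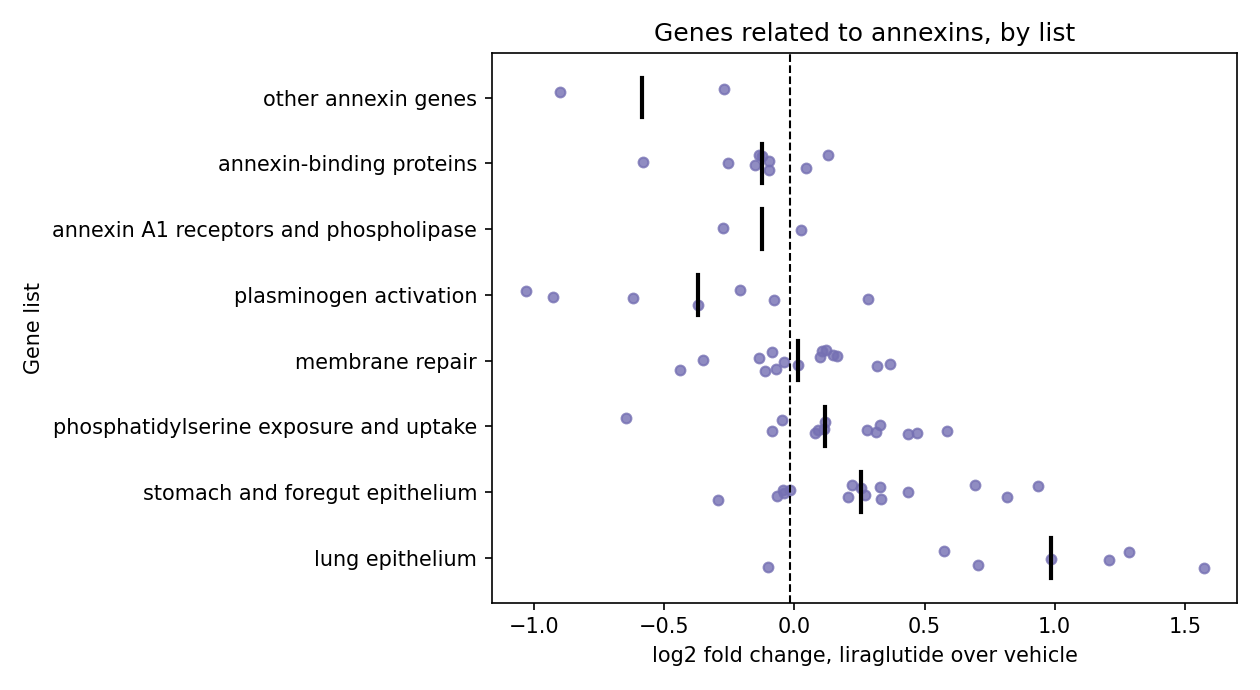
Log2 fold change, liraglutide over vehicle (edgeR, 5 tumors per group), of each tested gene in 8 lists related to annexins, with a thick bar at the median of the list and a dashed line at the median of all genes, -0.02. The medians run from -0.59 for the other annexin genes and -0.37 for plasminogen activation to 0.26 for stomach and foregut epithelium and 0.99 for lung epithelium, and 0 of the genes shown were called.

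Anxa8 (chromosome 14, 33807936 to 33822528, plus strand), which encodes an annexin of epithelia, had the largest within-group SD of the members on the log2 scale, 0.75. Vehicle tumors had 243 ± 128 CPM and liraglutide tumors 326.5 ± 107 CPM (SD, n = 5 each), a log2 fold change of 0.43 (SE 0.38, adjusted p = 0.711 by edgeR). Among vehicle tumors it ran from 87.74 to 384.8 CPM and among liraglutide tumors from 163.5 to 458.8 CPM. The log2 fold change was 0.21 without vehicle tumor 1, 0.28 without liraglutide tumor 3 and 0.67 without vehicle tumor 5.

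The other 3 members differed by less than their standard errors. Anxa3 (chromosome 5, 96940544 to 96993828, plus strand) had 608.5 ± 86.5 and 598 ± 69.9 CPM (log2 fold change -0.03, SE 0.12, adjusted p = 0.959 by edgeR). Anxa7 (chromosome 14, 20505328 to 20530201, minus strand), whose product was first described as a membrane fusion factor of secretory granules, had 208 ± 48.1 and 199 ± 27.1 CPM (log2 fold change -0.06, SE 0.17, adjusted p = 0.911). Anxa11 (chromosome 14, 25842547 to 25887229, plus strand), whose product tethers RNA granules to lysosomes, had 38.2 ± 15.1 and 40.9 ± 10.6 CPM (log2 fold change 0.10, SE 0.29, adjusted p = 0.922). Of the 50-base windows of Anxa11, 6.71% occurred in another gene, 377 of them in Plac9 on the opposite strand, so that reads could be mixed without strand. Its antisense gene Anxa11os was counted at 5.45 ± 1.80 and 6.73 ± 1.75 CPM.

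The annotation holds 12 annexin genes, and the remaining pair, Anxa9 and Anxa13, were low. Anxa9 had 12.9 ± 1.20 CPM with vehicle and 10.7 ± 1.87 CPM with liraglutide (log2 fold change -0.27, SE 0.15, adjusted p = 0.577 by edgeR). Anxa13, an annexin of intestine and kidney, had 6.16 ± 4.21 and 3.29 ± 1.83 CPM (log2 fold change -0.90, SE 0.50, adjusted p = 0.58), and its groups overlapped.

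Levels of different members were compared as CPM per kilobase of merged exons. In vehicle tumors the order of the means was Anxa2 (371 ± 105), Anxa1 (227 ± 66.5), Anxa8 (129 ± 68.0), Anxa4 (126 ± 26.0), Anxa10 (102 ± 37.4), Anxa3 (98.0 ± 13.9), Anxa5 (70.7 ± 5.86), Anxa7 (31.9 ± 7.38), Anxa6 (8.07 ± 5.54) and Anxa11 (4.92 ± 1.95 CPM per kb, SD, n = 5). Neighbors from Anxa2 down to Anxa3 overlapped over tumors, as did Anxa6 and Anxa11, whereas Anxa3 from Anxa5, Anxa5 from Anxa7 and Anxa7 from Anxa6 were separate. The vehicle range of Anxa10, 59.8 to 155 CPM per kb, took in that of Anxa3, which ran from 80.4 to 113 CPM per kb.

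In liraglutide tumors Anxa10, at 43.5 ± 12.2 CPM per kb (SD, n = 5), ranked 7 of 10 by merged exons, below Anxa5 (65.9 ± 2.69) in every tumor and with a range that overlapped that of Anxa7 (30.6 ± 4.15). Anxa2 stayed at the top with 323 ± 53.8 CPM per kb. By the same length the order below it was Anxa8 (173.5 ± 57.0), Anxa1 (159 ± 45.6), Anxa4 (103 ± 14.8) and Anxa3 (96.4 ± 11.3). Anxa10 made up 5.53% to 10.9% of the summed CPM per kb of the 10 members in vehicle tumors and 2.72% to 5.34% in liraglutide tumors. Both descriptions follow from the values that chose Anxa10. Levels and order depend on the length used. With the longest transcript in place of merged exons, Anxa10 came to 132 CPM per kb with vehicle (rank 5) and 56.4 CPM per kb with liraglutide (rank 8, below Anxa7 at 63.4). Anxa2 then stood at 817 CPM per kb and Anxa4 at 284.5 CPM per kb with vehicle, and the order in liraglutide tumors below Anxa2 was Anxa1 (254), Anxa4 (234), Anxa3 (181) and Anxa8 (173.5 CPM per kb).

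Log2 CPM of each gene was also compared among tumors of the same group, after the group means were removed. For Anxa10 these are the tumor values whose lack of overlap chose the family, with the difference between groups taken out. The correlations below are over 10 tumors, which share the same libraries for every gene, and are given as a description. Anxa10 went most closely with Anxa5 (Pearson's r = 0.69) and Anxa2 (0.61) among its paralogs, then with Anxa4 (0.43), Anxa3 (0.36), Anxa7 (0.36) and Anxa11 (0.33). Its r was near 0 with Anxa8 (0.10) and Anxa1 (0.07) and negative with Anxa6 (-0.46). This order is not firm: by Spearman's rho Anxa2 had 0.69, Anxa11 0.64, Anxa5 0.60 and Anxa4 0.24, and with single tumors left out Pearson's r went as low as 0.51 for Anxa5, 0.35 for Anxa2, 0.16 for Anxa3, 0.14 for Anxa7, 0.12 for Anxa11 and 0.05 for Anxa4, and as near 0 as -0.13 for Anxa6. The median of Pearson's r over the 9 paralogs was 0.36, where that over 11817 genes with a mean of at least 5 CPM was 0.04. Without vehicle tumor 3 the median over paralogs was 0.14.

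Several paralogs went closely together or in opposition. Anxa3, Anxa7, Anxa8 and Anxa11, grouped here after their values were seen, had r between 0.88 and 0.97 in all 6 pairs. Anxa4 and Anxa6 were almost mirror images, at r = -0.97, and Anxa1 opposed both Anxa8 (-0.84) and Anxa6 (-0.84) while it followed Anxa4 (0.77). Of the 45 pairs of members 8 had an r above 0.8 and 4 an r below -0.8. Anxa10 was in none of those 12. The share of such pairs among all genes is not given here, so these counts are not shown to be particular to the family.

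**Figure D4:**
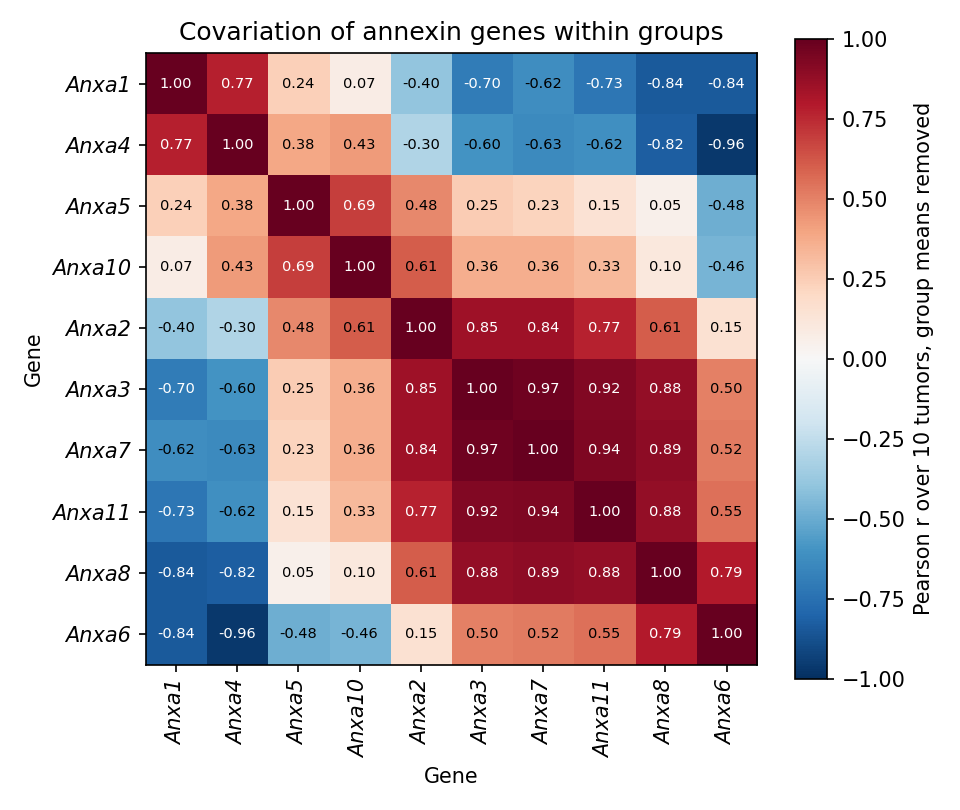
Pearson's r between the log2 CPM of each pair of annexin genes over 10 tumors after group means were removed (red positive, blue negative). Anxa3, Anxa7, Anxa11 and Anxa8 form a block of high values, Anxa4 and Anxa6 reach -0.97, and the row of Anxa10 stays between -0.46 and 0.69.

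The contrast among paralogs followed the main axis of variation between tumors. Within groups, r with the first principal component was 0.95 for Anxa6 and 0.87 for Anxa8 but -0.91 for Anxa1 and -0.90 for Anxa4, and with the mean of leukocyte markers it was 0.92, 0.84, -0.89 and -0.89. Vehicle tumors 1 and 2, lowest on that component at -69.28 and -67.16, had the least Anxa6 and Anxa8 and the most Anxa1. For Anxa10 the values were -0.25 with the component and -0.20 with leukocyte markers. With epithelial markers r was 0.86 for Anxa8, 0.85 for Anxa3, 0.84 for Anxa7 and 0.47 for Anxa10, and it was -0.67 for Anxa1 and -0.52 for Anxa4. With the 2 adipocyte markers tested it reached 0.77 for Anxa2 and 0.70 for Anxa7, with 0.26 for Anxa10. With keratinocyte markers no member exceeded 0.43 in size, and Anxa10 had -0.08. The part of these cell types in the differences between groups was not tested.

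Krt18, which encodes a keratin of simple epithelia, was the gene most like Anxa10. Within groups r was 0.99 (Spearman's rho 0.93), between 0.98 and 0.99 with each tumor left out and 0.985 without the 2 tumors farthest from the median of Krt18. Of the 11817 genes compared 12 had an r of 0.9 or more. The next were Dap, an autophagy-related gene (0.96), Fmr1, which encodes an RNA-binding protein (0.94), Slc20a2, a phosphate transporter gene (0.94), and Pex14, a peroxisomal import gene (0.93). Krt8, the usual partner of Krt18, had 0.72.

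Krt18 itself did not pass the test between groups, at 1615 ± 330 CPM with vehicle and 1374 ± 217 CPM with liraglutide (SD, n = 5 each; log2 fold change -0.23, SE 0.16, adjusted p = 0.643 by edgeR). In the plot of both genes Anxa10 ran along a separate line in each group. For every 100 CPM of Krt18, vehicle tumors 1 to 5 had 12.86, 12.83, 17.8, 11.76 and 15.06 CPM of Anxa10. Liraglutide tumors 1 to 5 had 7.89, 7.33, 6.86, 8.07 and 5.48. Means were 14.1 ± 2.41 and 7.13 ± 1.03 (SD, n = 5 each). The ratio reuses the Anxa10 values that chose the family, and Krt18 was the closest of 11817 genes, so the separation of the ratios is a description and no further evidence.

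On the log2 scale Anxa10 changed by 1.78 per unit of Krt18 within groups. The mean difference in log2 CPM of Anxa10 between the groups was -1.20, of which -0.80 remained at equal Krt18, with a residual SD of 0.09. This difference uses the contrast that chose Anxa10 and is given without a test. Krt18 was taken as a covariate after its likeness to Anxa10 had been seen.

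**Figure D5:**
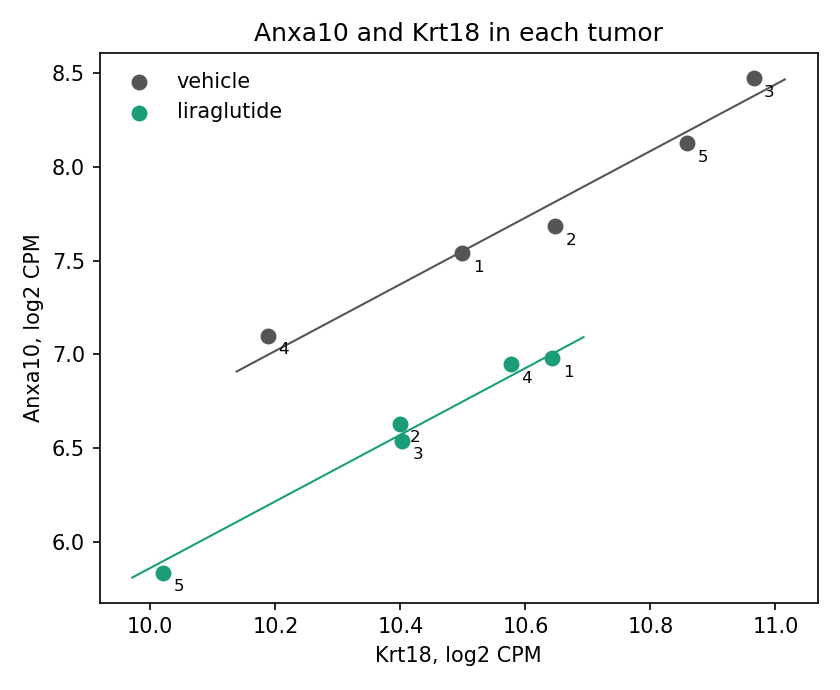
Anxa10 against Krt18, both in log2 CPM, in 5 vehicle tumors (gray) and 5 liraglutide tumors (green), numbered by tumor, with lines of the common within-group slope of 1.78. The liraglutide line lies below the vehicle line by 0.80 on the log2 scale at equal Krt18.

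Because annexin A10 is known from the stomach, genes of stomach and foregut epithelium were examined. Of 22 listed genes that were counted, 15 were tested, with 10 log2 fold changes above 0, 5 below, a median of 0.26 and 0 called. Hnf4a, a regulator of gut epithelium, had 256 ± 67.5 CPM with vehicle and 321 ± 55.0 CPM with liraglutide, and Ctse, a gastric protease gene, 189 ± 82.7 and 305 ± 126 CPM (log2 fold change 0.69, SE 0.36, adjusted p = 0.561 by edgeR). Foxa3 had the smallest p of the list at a low level (1.02 ± 0.508 and 1.97 ± 0.931 CPM, log2 fold change 0.94, SE 0.42, adjusted p = 0.518). Cldn18, Muc5ac, Lgals4 and Vsig1 were present in every tumor, from 109.1, 18.25, 47.87 and 41.59 CPM upward, whereas Gkn1, Tff1, Tff2, Pgc and Sox2 did not pass the filter.

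Within groups their r with Anxa10 was 0.32 for Ctse, 0.20 for Hnf4a, 0.11 for Cldn18 and -0.23 for Muc5ac. The r farthest from 0 in that list was that of Pdx1, at -0.83, with a mean of only 3.24 CPM in vehicle tumors. Plaur, from the plasminogen list, had 0.82. In lung epithelium 6 of 7 tested genes had a log2 fold change above 0, with a median of 0.99 and 0 called. Of all genes tested 52.6% had one below 0. The exception was Sftpb, the most abundant of the list, with means of 274.5 CPM with vehicle and 255.5 CPM with liraglutide (log2 fold change -0.10). Sftpc, Napsa and Scgb1a1, among those above 0, were low, with means of 1.15, 1.03 and 1.98 CPM with vehicle. Nkx2-1 had 46.3 ± 33.4 CPM with vehicle and 91.8 ± 32.5 CPM with liraglutide (log2 fold change 0.99, SE 0.45, adjusted p = 0.52 by edgeR), and its r with Anxa10 within groups was -0.40. Abca3, a lipid transporter of alveolar type 2 cells, had a log2 fold change of 0.58 (SE 0.29, adjusted p = 0.547).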

How the data were processed

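Ribosome-depleted total RNA of 10 tumors was sequenced in read pairs. The authors aligned reads using TopHat with Bowtie, assigned them to genes by featureCounts, and deposited raw counts without normalization. Their methods name GRCm39, the labels mm10 and GRCh38. Annotation release, strand setting and handling of multiply mapped reads are not given in the sources used here. Identifiers were matched without version to GENCODE M39 on GRCm39 (51731 matched, 93.38%, with 98.31% of counts, 35 of the same version), so positions and lengths may differ in detail from the gene models that were counted. Promoter sequences are from RefSeq on GRCm38.p6.

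In R 4.3.3, edgeR 4.0.16 (filterByExpr, TMM scaling) kept 17464 genes of 35141 with a count and tested treatment as the single factor by the quasi-likelihood F test, called at a Benjamini-Hochberg adjusted p under 0.05. A standard error is the log2 fold change over the square root of F. CPM uses TMM-scaled library sizes, log2 CPM a prior count of 2, and floors of 3 counts cover counting error alone. Groups and tumor numbers came from the sample titles. The titles do not say which mouse a tumor came from, so p-values measure the spread between these samples. Total counts per tumor were 9927942 to 14480593.

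The members, gene lists and tests were chosen with earlier results of these data known. Named are all members, from each list of related genes the 2 of smallest unadjusted p (cell type markers are given as sums), the 5 genes most like Anxa10 among those with a mean of at least 5 CPM, its nearest tested protein-coding neighbors and tissue markers. Genes named beyond these were chosen after their values were seen. Alternatives were limma-voom (limma 3.58.1), DESeq2 1.42.0 (filtered independently or not), its size factors in edgeR, no scaling beyond library size, a filter of 1 count, the tumor number as a block, and each tumor left out. The fits were tested on simulated data. Flow cytometry and other experiments of the study were not analysed here. Some alleles of the line are not reported here.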

Additional observations from a re-analysis of the deposited data

Results flagged for a closer look

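Among the 20 sets of 5 tumors (10 members in each group), 1 tumor stood apart from the rest of its group by Dixon's criterion on the log2 CPM (gap over range above 0.71). In Anxa11, liraglutide tumor 2 had 22.94 CPM, below the other 4 liraglutide tumors at 40.18 to 48.98 CPM, with a gap over range of 0.739. Chance flags about 1 in 20 such sets. The same tumor had the lowest Anxa2, Anxa3, Anxa6, Anxa7 and Anxa8 and the highest Anxa1 and Anxa4 of the liraglutide group.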

How the results depend on the processing

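The count of genes called was 0 with edgeR, 52 with DESeq2 and 11 with DESeq2 without independent filtering, and 0 under the other alternatives and with each tumor left out. Among the paralogs and among the listed genes it was 0 under every alternative run, and the lowest adjusted p of any paralog was 0.186. A gene that the independent filter of DESeq2 leaves without an adjusted p cannot be called there. This held for Anxa11, whose adjusted p by DESeq2 without that filter was 0.991. The log2 fold change of Anxa10 lay between -1.36 and -1.02 with single tumors left out and was -0.80 with Krt18 as a covariate, chosen after seeing the data. Tumor numbers were not treated as pairs, since no label says that they mark a shared source and same-numbered tumors correlated at -0.0753 to 0.565, with only number 2 best matched to its own, which does not settle whether they pair. With a replicate block on that number 0 genes were called, 2585 instead of 1675 had an unadjusted p under 0.05 (919 to 2704 with single tumors left out, lowest without liraglutide tumor 5 and highest without vehicle tumor 4), and the log2 fold change of Anxa10 was -1.20. Of 153 recomputed log2 fold changes of paralogs 9 changed sign, in 3 genes that lay near 0. Anxa3 came to 0.03 with library size alone and between -0.089 and 0.045 with single tumors left out (0.037, 0.005 and 0.014 without vehicle tumors 3, 4 and 5, 0.045 without liraglutide tumor 2). Anxa7 lay between -0.18 and 0.03 (0.033 without vehicle tumor 3, 0.014 without liraglutide tumor 2), and Anxa11 between -0.08 and 0.27 (-0.079 and -0.008 without vehicle tumors 1 and 2). The median r of the paralogs with Anxa10 was 0.54 by Spearman's rho in place of Pearson's r, and between 0.14 and 0.51 with single tumors left out, without vehicle tumors 3 and 4. The causes were not tested. With the longest transcript, levels of Anxa10 per kb moved by less than 1 SD with vehicle but by more with liraglutide (43.5 to 56.4, SD 12.2). Depth did not limit the members, all at 263 counts or more per tumor. It limits Fpr2, Plg and the alveolar genes of low counts, such as Sftpc and Napsa, but not Abca3, at 554 counts or more.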
